A study of Mus musculus with 23 samples.

Results

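Among 26 named lentiviral vectors in a pool used to start barcoded lung tumours in mice, 4 carried a guide RNA against Sik1 together with a guide RNA against Sik3. They were chosen by name, as the vectors that name Sik1 and Sik3 and not Sik2, and they combine each of 2 Sik1 guides with each of 2 Sik3 guides. The other 22 vectors were 20 against other genes or gene combinations and 2 inert vectors, whose guides are named only Neo or NT and are aimed at no named gene. Sizes and numbers of tumours with a dual Sik1/Sik3 vector are given relative to inert tumours of the same mouse.

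Each vector also delivers Cre recombinase and a random barcode, so that the cells of a tumour carry the barcode of the cell it grew from, and sequencing the barcodes counts and sizes the tumours. Sik1 and Sik3 are salt-inducible kinases, members of the AMPK-related kinase family. The tumour suppressor kinase Lkb1, also called Stk11, activates this family by phosphorylation, and the salt-inducible kinases in turn phosphorylate CRTC transcriptional coactivators and class IIa histone deacetylases and keep them out of the nucleus.

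All mice were of a mixed BL6/129 strain and were analysed 4 months after tumour initiation. KT mice carried R26LSL-Tomato, a Cre-dependent Tomato reporter, but no Cas9, so guides cannot cut and these mice give the background. KT_Cas9 mice carried R26LSL-Tomato and H11LSL-Cas9 and so express Cas9 after Cre. KTL_Cas9 mice had both of these alleles together with Lkb1flox/flox, so that Cre also deletes Lkb1 in every tumour, including the inert ones. The labels give neither the age of the mice nor the virus dose, and whether a guide cut its gene was not measured in the table used here.

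Each vector is read from an 8-base identifier ahead of the tumour barcode, and the identifiers are shown because every value below rests on telling these vectors apart. The capitals are the whole identifier. The Sik1 guide stands behind the mU6 promoter and the Sik3 guide behind the hU6 promoter, and guide 1 and guide 2 are those written 1st and 2nd in the table.
Sik1 guide 1/Sik3 guide 1: CCTACTAC
Sik1 guide 1/Sik3 guide 2: GAGATCCA
Sik1 guide 2/Sik3 guide 1: TGTATCGC
Sik1 guide 2/Sik3 guide 2: TTGCCACA
inert Neo1/NT: AATCCGGT
inert Neo1/NT/Neo2: AATTGCCG
Any 2 of the dual identifiers differ at 5 or more positions, and any 2 of all 26 at 3 or more. In what follows a dual vector is called by its guides, Sik1 guide first, so that pair 1/2 carries Sik1 guide 1 and Sik3 guide 2.

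Of 5 labelled KT mice 4 were used, of 10 KT_Cas9 mice 10, and of 8 KTL_Cas9 mice 7. KT replicate 4 was not analysed here, and KTL_Cas9 replicate 1, with 17 tumours and 0 inert ones, was left out. Replicate numbers only name the mice. Barcodes were called tumours from 500 estimated cells upwards. That floor corresponds to between 3.13 and 7.81 reads depending on the KT mouse, and to at most 51.7 reads in any KTL_Cas9 mouse. Dual vectors had 115876 to 217786 reads in a KT mouse, 12916 to 1226092 in a KT_Cas9 mouse and 665101 to 4043750 in a KTL_Cas9 mouse. These reads carry no molecular identifiers and are not independent molecules, so errors given are the spread between mice. The dual vectors supplied 54406 of 324965 tumours. The number with a dual vector was 3337 to 8189 per KT mouse (median 6651), 388 to 9524 per KT_Cas9 mouse (median 1466.5) and 140 to 633 per KTL_Cas9 mouse (median 249), beside 1496 to 3693, 125 to 4370 and 61 to 321 inert tumours. Of the dual tumours, 3.01% had a vector and barcode also found in another mouse, against 4.95% of all tumours. By mouse, the dual share was above that of all tumours in 3 mice, at 20.5% against 15.3% in KTL_Cas9 replicate 7, 17.4% against 10.1% in KTL_Cas9 replicate 5 and 12.1% against 9.19% in KT_Cas9 replicate 5, and below it in the others used.

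Setting KT_Cas9 mice against KT mice asks whether the guides change tumour size where Lkb1 is intact. Tumours with each of the 4 dual vectors were larger relative to inert tumours in KT_Cas9 than in KT mice, by 1.69-fold to 2.23-fold. Size was the log-normal mean, a maximum-likelihood estimate of the mean cell number from the mean and variance of log cell numbers. It takes a log-normal shape as given and need not follow the arithmetic mean. The choice between these means changed the comparison of the Cas9 genotypes below.

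In KT mice the log2 ratio of dual to inert size stayed between -0.34 and 0.22. For pair 1/1 the log-normal mean was 1744, 1997, 3041 and 1937 cells in KT replicates 1, 2, 3 and 5, and that of inert tumours in the same mice was 1740, 1928, 3088 and 1961 cells. The 4 values of pair 1/2 were 1888, 2244, 3336 and 2161 cells, and those of pair 2/1 were 1856, 2058, 3118 and 2087 cells. Those of pair 2/2 were 1375, 1939, 2727 and 2004 cells. KT replicate 3 had the largest tumours with every dual vector and with inert vectors, and the ratio within a mouse removes that difference.

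In KT_Cas9 mice the log-normal mean of pair 1/1 tumours ran from 1208 to 4699 cells (median 2482), and that of inert tumours from 926 to 1845 cells (median 1365). Relative to inert tumours of the same mouse, its log2 size ran from 0.36 to 1.40 with a median of 0.81, above 0 in 10 of 10 mice, against a KT range of -0.02 to 0.05. The groups did not overlap, and the difference was 1.84-fold (log2 difference 0.88 ± 0.12 SE, n = 10 and 4; two-sided exact permutation of mice, adjusted p = 0.0080 over the 24 targeting vectors). For pair 1/2 the log2 size ran from 0.36 to 1.92 in KT_Cas9 mice (median 0.80), all above the highest KT value of 0.22. The difference was 1.69-fold (log2 0.75 ± 0.16 SE; exact permutation, adjusted p = 0.024).

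Pair 2/1 tumours had log2 sizes from 0.24 to 1.65 in KT_Cas9 mice (median 0.90), again all above the highest KT value of 0.09. Their difference was 1.85-fold (log2 0.89 ± 0.15 SE; exact permutation, adjusted p = 0.0137). Pair 2/2, the vector with the fewest tumours, spread most widely, from -0.04 to 2.09 with a median of 1.01, and 9 of 10 KT_Cas9 mice lay above the highest KT value of 0.03. Its difference was 2.23-fold (log2 1.16 ± 0.24 SE; exact permutation, adjusted p = 0.0192).

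All 4 dual vectors thus passed the threshold of 0.05 for larger size, where 58.3% of the 24 targeting vectors did (14 of 24). Their median log2 difference was 0.88 against 0.73 over all 24. How many of the 24 also had no overlap between genotypes is not given, here or below. Separation of the mice is therefore not read as particular to the dual vectors. By list, 1 of 5 other Sik vectors passed (Sik1/Sik2/Sik3, log2 0.97 ± 0.15 SE), 9 of 10 with an Lkb1 guide and 0 of 5 against other AMPK-related kinases (Ampk, Nuak, Mark and Snrk). Without KT replicate 1 or KT replicate 3 the count fell to 2 of 4, as the adjusted p of pairs 1/2 and 2/2 rose above the threshold. Over 26 settings the adjusted p of these 2 vectors ran from 0.0061 to 0.0671 and from 0.0089 to 0.0699. The size of the differences moved with the floor. Over the settings they ran from log2 0.43 to 2.65, 0.36 to 2.58, 0.43 to 2.78 and 0.49 to 3.20 for pairs 1/1, 1/2, 2/1 and 2/2, lowest with the floor at 150 cells, where 3 of 4 and 11 of 24 vectors were called higher, and highest at 5000 cells, where 4 of 4 and 14 of 24 were.

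The geometric mean over mice of the log-normal mean size was 2128, 2351, 2233 and 1954 cells for pairs 1/1, 1/2, 2/1 and 2/2 in KT mice and 2412, 2442, 2545 and 2686 cells in KT_Cas9 mice. That of inert tumours was 2123 and 1307 cells. Levels in cells were not tested between genotypes, and at the 95th percentile inert tumours went from 9426 to 3868 cells where pair 1/1 went from 9532 to 13094.

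Size percentiles show which part of the size distribution differed. In KT_Cas9 against KT mice the excess of the dual vectors over inert tumours lay in the upper tail and grew towards it. At the median tumour none of the 4 passed (0 at adjusted p under 0.05, 1 at an unadjusted p under 0.05; background 0%), with log2 differences of 0.08, 0.10, 0.13 and 0.25 in the order of the identifiers above. The median tumour of pair 1/1 held 896 to 1438 cells in KT mice, the same in each mouse as the median inert tumour, and 728 to 1064 cells in KT_Cas9 mice. Such tumours rest on few reads, so median sizes move in steps of whole reads.

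At the 70th percentile the 4 log2 differences were 0.19, 0.10, 0.17 and 0.27, with 0 of 4 called (1 unadjusted; background 0%). At the 80th they were 0.30, 0.12, 0.30 and 0.47, again with 0 of 4 called (2 unadjusted; background 0%). None of these percentiles separated the groups of mice for a dual vector. With the floor at 5000 cells, which takes the percentiles over larger tumours only, 4 of 4 were called higher at both, beside 13 and 15 of the 24 vectors.

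At the 90th percentile 2 of 4 passed, pair 1/1 (log2 0.83 ± 0.18 SE, 1.78-fold; exact permutation, adjusted p = 0.0266) and pair 2/2 (log2 1.27 ± 0.28 SE, 2.41-fold; the same adjusted p), where the background was 37.5%. Pairs 1/2 and 2/1 had log2 differences of 0.57 and 0.75, the latter with all 10 KT_Cas9 mice above the 4 KT mice but an adjusted p of 0.0719 by exact permutation. The 2 calls were both lost without any of the 4 KT mice in turn or without KT_Cas9 replicate 7, and also with the floor at 150 cells.

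At the 95th percentile all 4 passed, and the background was 58.3%. The 95th percentile of pair 1/1 ran from 2328 to 72781 cells in KT_Cas9 mice (median 10386) and from 7745 to 13669 cells in KT mice, while that of inert tumours ran from 1923 to 7386 and from 7633 to 13645 cells. Relative to inert tumours the 4 differences were 3.35-fold, 3.20-fold, 3.08-fold and 4.45-fold (log2 1.74 ± 0.35, 1.68 ± 0.36, 1.62 ± 0.35 and 2.15 ± 0.48 SE; exact permutation, adjusted p from 0.024 to 0.028). For the first 3 of these all 10 KT_Cas9 mice lay above the highest KT value, and for pair 2/2 it was 9 of 10. Without KT replicate 1 or KT replicate 3, 0 of 4 passed at this percentile. At a floor of 150 cells 0 of 4 and 0 of 24 passed, and the difference of pair 1/1 was log2 0.46.

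At the 99th percentile the differences were larger still. They were 7.18-fold, 5.16-fold and 10.3-fold for the first 3 vectors (log2 2.84 ± 0.50, 2.37 ± 0.44 and 3.36 ± 0.44 SE; exact permutation, adjusted p = 0.024, 0.0274 and 0.0120), so 3 of 4 passed, beside a background of 37.5%. Pair 2/2 was 7.27-fold higher but missed the threshold (log2 2.86 ± 0.77 SE; exact permutation, adjusted p = 0.0589). In single KT_Cas9 mice the 99th percentile of pair 2/1 ran from 12603 to 473600 cells, and that of inert tumours from 3887 to 65992 cells. Leaving out KT replicate 1, 2, 3 or 5 left 1 of 4 passing, without KT_Cas9 replicate 8 it was 2, and without KT_Cas9 replicate 5 or 6 it was 4.

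The share of all tumour cells in a mouse that carried a dual vector followed the upper tail. In KT mice the 4 dual vectors together held 16.6%, 15.8%, 15.8% and 17.2% of tumour cells, near their 16.1% ± 0.14 (SD, n = 4) share of tumours. In KT_Cas9 mice they held 18.1% to 38.2% of cells (median 27.0%) with 18.0% ± 1.31 (SD, n = 10) of tumours, and in KTL_Cas9 mice 19.0% to 47.5% of cells (median 30.6%) with 14.7% ± 1.09 (SD, n = 7) of tumours. Every Cas9 mouse lay above the highest KT mouse. The inert share of cells was 6.86% to 7.38% in KT mice. With Cas9 it was 1.38% to 7.25%, and with Cas9 and no Lkb1 it was 2.86% to 6.60%.

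By vector, pair 1/1 held 5.65%, 4.87%, 5.27% and 5.58% of tumour cells in the 4 KT mice and 3.36% to 14.6% in KT_Cas9 mice (median 8.03%). Pair 1/2 held 4.57%, 4.35%, 4.51% and 4.79%, and then 3.22% to 16.7% (median 6.33%). Pair 2/1 held 5.57%, 5.38%, 4.99% and 5.53%, and then 5.02% to 14.8% (median 9.26%). For these 3 pairs the lowest KT_Cas9 mouse lay below the highest KT mouse, so the shares of single vectors overlapped. Pair 2/2 held 0.77%, 1.24%, 1.02% and 1.31% in KT and 0.24% to 6.17% in KT_Cas9 mice (median 1.62%).

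Against inert cells of the same mouse, which other targeting vectors do not enter, the summed cells of the dual vectors rose 4.08-fold to 4.91-fold from KT to KT_Cas9 mice. Pair 1/1 had log2 ratios from 0.89 to 2.65 in KT_Cas9 mice (median 1.85) and from -0.49 to -0.38 in KT mice, a 4.46-fold difference (log2 2.16 ± 0.17 SE; exact permutation, adjusted p = 0.0060). Pair 1/2 differed 4.08-fold (log2 2.03 ± 0.27 SE) and pair 2/1 4.91-fold (log2 2.30 ± 0.33 SE), each with no overlap of the 10 and 4 mice and the same adjusted p by exact permutation. Pair 2/2 differed 4.38-fold but with a wide spread, from -2.93 to 1.86 in KT_Cas9 mice, and missed the threshold (log2 2.13 ± 0.51 SE; exact permutation, adjusted p = 0.0533). So 3 of 4 passed, where 33.3% of the 24 did. The separation of mice has no such share here and is not read as particular to the dual vectors. When inert tumours were limited to the vector Neo1/NT/Neo2, 0 of 4 passed, although the differences were of like size; without KT_Cas9 replicate 6 or 8 all 4 passed.

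A few large clones held much of these cells. The largest tumour of a vector in a mouse held 9.21% to 72.7% of that vector's cells in KT_Cas9 mice for pair 1/1 (median 15.9%) and 1.16% to 7.58% in KT mice. For pair 1/2 it held 5.59% to 72.7% (median 15.8%) and 1.46% to 2.67%. For pair 2/1 it held 6.61% to 69.7% (median 22.9%) and 3.21% to 9.04%. Inert tumours of KT_Cas9 mice showed a like spread, 3.70% to 64.3% (median 8.39%).

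Counts of large tumours show the tail directly. Of the dual tumours, 0.0926% of 24828 in KT, 2.24% of 27040 in KT_Cas9 and 19.4% of 2538 in KTL_Cas9 mice held at least 100000 cells. Inert tumours reached that size in 0.0787%, 0.146% and 8.62% of cases. Per KT mouse there were 2 to 8 dual tumours of that size, per KT_Cas9 mouse 1 to 149 (median 33.5) and per KTL_Cas9 mouse 35 to 158 (median 57).

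In KT_Cas9 mice the share of tumours at that size was near 2% for every guide pair, at 2.19%, 2.31%, 2.29% and 2.03% in the order of the identifiers. In KTL_Cas9 mice it was 18.8%, 17.5%, 23.8% and 12.7%. Tumours of a mouse share that mouse, so these pooled shares have no interval of their own. The spread over mice was 0% to 4.17% for pair 1/1 in KT_Cas9 mice and 11.7% to 27.6% in KTL_Cas9 mice.

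At least 1000000 cells were held by 0 dual tumours in KT mice, 73 in KT_Cas9 mice and 68 in KTL_Cas9 mice, against 0, 4 and 5 inert tumours. The 73 came from 8 of 10 mice, 32 of them from KT_Cas9 replicate 10, and the 68 from 7 of 7 mice, 25 of them from KTL_Cas9 replicate 5. Dual vectors made up 17.7% of all tumours but 30.8% of those with at least 100000 cells and 37.4% of those with at least 1000000 cells in KT_Cas9 mice. In KTL_Cas9 mice the same shares were 14.4%, 25.7% and 46.9%, and in KT mice the first 2 were 16.1% and 15.4%.

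The largest tumour with each dual vector shows what a record holds, and its barcode is printed because it names the tumour within a mouse, together with the identifier. Lower case marks the 10 fixed bases of the 30-base barcode and capitals the 20 random ones.
Sik1 guide 1/Sik3 guide 1, KTL_Cas9 replicate 4: gcTCTAAtaACCCTgcCCATTtaTACTAgc
Sik1 guide 1/Sik3 guide 2, KT_Cas9 replicate 4: gcCGACGtaCTATCgcTTTCCtaGCGCCgc
Sik1 guide 2/Sik3 guide 1, KTL_Cas9 replicate 4: gcTGTTTtaTCGTGgcGGTGCtaCTCCAgc
Sik1 guide 2/Sik3 guide 2, KTL_Cas9 replicate 6: gcAATGCtaCTTCAgcGATATtaTAGCGgc
These 4 held 4810890, 23410300, 12622400 and 4092080 cells, from 59283, 285621, 155542 and 168097 reads. The pair 1/2 tumour alone was 10.03% of all tumour cells of its mouse. The tumours of pairs 1/1, 2/1 and 2/2 were 1.68%, 4.40% and 2.55% of theirs. In the order printed, the barcodes were found in 1, 4, 6 and 1 mice. The largest tumours of pairs 1/1, 1/2, 2/1 and 2/2 within KT_Cas9 mice had barcodes found in 2, 4, 3 and 2 mice. Within KT mice it was 1, 2, 2 and 1 mice, and within KTL_Cas9 mice 1, 4, 6 and 1. Shared barcodes were thus common among the largest tumours, though rare among all dual tumours, and why was not tested.

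The number of tumours per vector asks whether a vector starts or keeps more clones above the size floor. No dual vector passed a test of number between genotypes. Pair 1/1 gave 0.746 ± 0.030 tumours per inert tumour in KT mice (SD, n = 4), 0.855 ± 0.133 in KT_Cas9 mice (SD, n = 10) and 0.803 ± 0.188 in KTL_Cas9 mice (SD, n = 7). From KT to KT_Cas9 mice the 4 log2 differences in number were 0.18 ± 0.07, 0.17 ± 0.08, 0.22 ± 0.07 and 0.15 ± 0.10 SE. Of the 4, 0 passed by exact permutation with adjustment, 0 had an unadjusted p under 0.05 and limma called 0, and the background was 0%.

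Between KTL_Cas9 and KT mice the log2 differences in number were 0.07 ± 0.13, 0.03 ± 0.10, -0.04 ± 0.13 and 0.07 ± 0.19 SE (0 called, 0 unadjusted, 0 by limma; background 0%). Between KTL_Cas9 and KT_Cas9 mice they were -0.11 ± 0.15, -0.15 ± 0.13, -0.26 ± 0.14 and -0.09 ± 0.21 SE (0 called, 0 unadjusted, 0 by limma), where 8.33% of the 24 vectors were called higher. Differences larger than their error, such as -0.26 ± 0.14 SE, were also not called, so a change in number of that size could be missed. With the floor at 5000 cells all 4 were called lower in that last comparison, as were 9 of the 24 vectors.

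KTL_Cas9 mice against KT mice show the same guides in tumours that also lack Lkb1. These groups differ in both Cas9 and Lkb1, and no mice here lack Lkb1 without having Cas9. What each of these changes adds cannot be told apart in this comparison. Dual tumours of KTL_Cas9 mice were larger than inert tumours of the same mice for 3 of the 4 guide pairs in 7 of 7 mice. The log-normal mean of pair 2/1 tumours ran from 106648 to 608847 cells (median 173328), beside 19495 to 103239 cells (median 34618) for inert tumours. Relative to inert tumours its log2 size ran from 1.07 to 3.81 with a median of 2.56. Pair 1/1 ran from 0.87 to 3.76 (median 1.38) and pair 1/2 from 0.49 to 2.85 (median 1.52). All 7 mice lay above all 4 KT mice for these 3 vectors. How many of all targeting vectors also had no overlap is not given, so this separation is not read as particular to them.

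Pair 2/2 did otherwise in 2 mice. Its log2 size was -2.32 in KTL_Cas9 replicate 3 and -2.80 in replicate 4, against 0.30 to 2.80 in the other 5, so it overlapped the KT values. It had only 9 to 90 tumours per KTL_Cas9 mouse, with 26 in replicate 3 and 90 in replicate 4.

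The differences from KT mice were 3.05-fold, 2.81-fold, 5.25-fold and 1.90-fold (log2 1.61 ± 0.38, 1.49 ± 0.35, 2.39 ± 0.37 and 0.93 ± 0.93 SE, n = 7 and 4). Of the 4, 0 passed by exact permutation (adjusted p = 0.0727, 0.0909, 0.0727 and 0.8156), 3 had an unadjusted p under 0.05 and limma called 3, which were the 3 it called of 24, and the background was 0% in this comparison. Their median was 1.55 against 0.18 over all 24. The smallest p that these 7 and 4 mice allow is 0.00303, which limits what adjustment over 24 vectors can pass.

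The percentiles of KTL_Cas9 tumours gave a like picture. At the 95th percentile 3 of 4 passed, at 2.81-fold, 2.45-fold and 4.02-fold (log2 1.49 ± 0.35, 1.29 ± 0.24 and 2.01 ± 0.26 SE; exact permutation, adjusted p = 0.0485 for each), and the background was 12.5%, these 3 being the only vectors called. The 95th percentile of pair 2/1 ran from 393593 to 1020560 cells, that of inert tumours from 87593 to 236996 cells. All 3 calls were lost without any one of KT replicates 1, 2, 3 and 5 or KTL_Cas9 replicates 2, 3, 4, 7 and 8, and 1 of 3 without KTL_Cas9 replicate 6. Floors of 150, 1500 and 5000 cells each left 0 of 4 called at this percentile. At the 50th, 70th, 80th, 90th and 99th percentiles 0 of 4 passed (1, 3, 3, 3 and 1 unadjusted; background 0% at each).

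Summed cells against inert cells differed from KT mice by 2.46-fold, 2.35-fold, 3.60-fold and 1.79-fold (log2 1.30 ± 0.33, 1.23 ± 0.32, 1.85 ± 0.27 and 0.84 ± 0.70 SE). None passed by exact permutation (0 of 4, 3 unadjusted; background 0%), while edgeR and DESeq2 on summed reads each called 3, of 5 and 6 called among the 24 vectors. All 7 KTL_Cas9 mice lay above all KT mice for the first 3 vectors, and without KTL_Cas9 replicate 6 exact permutation called 2. Shares over the 24 vectors are not given for these, so neither is read as particular to the dual vectors.

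The direct comparison of KTL_Cas9 with KT_Cas9 mice asks whether the dual vectors act differently on tumours without Lkb1. Relative to inert tumours, pair 2/1 tumours were 2.84-fold larger in KTL_Cas9 mice (log2 1.504 ± 0.39 SE, n = 7 and 10; exact permutation, adjusted p = 0.0030), with 5 of 7 KTL_Cas9 mice above the highest KT_Cas9 mouse. It was the one dual vector called and the one vector called higher of 24, a background of 4.17%. Pair 1/1 and pair 1/2 were 1.66-fold and 1.67-fold larger but missed the threshold (log2 0.73 ± 0.40 and 0.74 ± 0.38 SE; exact permutation, adjusted p = 0.0522 and 0.0869). Pair 2/2 differed by -0.23 ± 0.96 SE.

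This comparison depended on the size floor and on the kind of mean. With the floor at 1500 cells 0 of 4 were called, and with the arithmetic mean 0 of 4 were and pair 2/1 differed by -0.19. With the floor at 5000 cells pairs 1/1, 1/2 and 2/1 were called lower in KTL_Cas9 mice, with log2 differences of -1.41, -1.32 and -1.01 (exact permutation, adjusted p = 0.0258, 0.0178 and 0.0221), where 13 of the 24 vectors were called lower. At a floor of 150 cells the same 3 pairs were called higher, and they were the 3 called higher of 24. Leaving out KTL_Cas9 replicate 2, 3, 4 or 6 or KT_Cas9 replicate 3 or 4 raised the count at 500 cells to 2 or 3 of 4.

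The percentiles show how the direction turns. From the median to the 90th percentile the mean log2 differences of pairs 1/1, 1/2 and 2/1 were above 0, and at the 99th those of all 4 pairs were below 0. At the median 2 of 4 passed as higher, pair 1/1 (log2 0.68 ± 0.32 SE) and pair 2/1 (log2 1.13 ± 0.43 SE), where 20.8% of vectors did. The median pair 2/1 tumour of KTL_Cas9 mice held 1688 to 66516 cells, and the median inert tumour 1704 to 17664 cells. Without single mice the count at the median was 1 in 13 of 17 cases, 3 without KTL_Cas9 replicate 4 or 6, and 2 otherwise.

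At the 70th percentile 3 of 4 passed (log2 0.82 ± 0.25, 0.72 ± 0.27 and 1.39 ± 0.37 SE), and they were the only vectors called higher, a background of 12.5%. At the 80th percentile the same 3 passed (log2 0.94 ± 0.35, 0.84 ± 0.30 and 1.49 ± 0.36 SE; background 12.5%). Their adjusted p by exact permutation lay between 0.0021 and 0.0165 at these percentiles. Pair 2/2 differed by -0.04 ± 0.83 and -0.32 ± 0.87 SE there. These calls did not hold at higher floors. A floor of 1500 cells left 0 of 4 called at either percentile, and pairs 1/1 and 1/2 were at -0.60 and -0.75 at the 80th. Under a floor of 5000 cells the 3 pairs were at -1.24, -1.07 and -0.66 at the 70th percentile with 0 called, and at -1.64, -1.39 and -1.29 at the 80th, where all 3 were called lower, as were 13 of 24 vectors. At the 90th percentile 1 of 4 passed, pair 2/1 (log2 0.87 ± 0.33 SE; background 4.17%). That call was lost on leaving out any of KTL_Cas9 replicates 2, 4 and 5 and KT_Cas9 replicates 1, 5, 6, 7, 8 and 10. It was also lost with the floor at 1500 cells, where the difference was -0.66, and at 5000 cells all 4 pairs were called lower, as were 15 of 24 vectors.

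At the 95th percentile the 4 differences were -0.25 ± 0.50, -0.39 ± 0.43, 0.38 ± 0.42 and -1.24 ± 0.96 SE, with 0 of 4 called (0 unadjusted; background 0% higher). At a floor of 150 cells 2 of 4 were called higher, at 1500 cells 2 of 4 lower and at 5000 cells 4 of 4 lower, beside 2 higher, 12 lower and 14 lower of 24. At the 99th percentile pair 1/1 was lower in KTL_Cas9 mice (log2 -1.91 ± 0.62 SE; exact permutation, adjusted p = 0.0342), which made 1 of 4 lower and 0 of 4 higher, with backgrounds of 41.7% lower and 0% higher. The other three had log2 differences of -1.46, -1.33 and -2.34. A vector had 9 to 214 tumours in a KTL_Cas9 mouse, so the 99th percentile there lies near the largest tumour. Without single mice the count called lower ran from 0 to 3, and it was 0 on leaving out any of KTL_Cas9 replicates 2, 3, 4, 6 and 8 and KT_Cas9 replicates 1, 3, 4, 9 and 10, and 2 or 3 without KTL_Cas9 replicate 5 or KT_Cas9 replicate 5 or 6.

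Summed cells against inert cells were lower in KTL_Cas9 than in KT_Cas9 mice by log2 differences of -0.86 ± 0.37, -0.80 ± 0.42, -0.45 ± 0.43 and -1.29 ± 0.83 SE, and 0 of 4 passed (1 unadjusted, 0 by edgeR and DESeq2), where 20.8% of vectors were called lower. Without KTL_Cas9 replicate 5 or KT_Cas9 replicate 6, 1 of 4 passed. Under floors of 1500 and 5000 cells 2 and 4 of 4 were called lower, beside 8 and 14 of 24. In every KTL_Cas9 mouse the inert tumours also lack Lkb1, and their log-normal mean was 38669 cells there against 1307 in KT_Cas9 mice (geometric means over mice).

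The 2 by 2 layout allows the guides to be compared within a mouse, which removes every difference between mice. In size, no difference between the guide pairs passed in KT_Cas9 mice. Of 9 contrasts (6 pairwise differences, the Sik1 guide effect, the Sik3 guide effect and their interaction), 0 passed an exact sign-flip permutation over 10 mice (0 unadjusted; lowest adjusted p = 0.834). Sik1 guide 2 minus guide 1, averaged over the Sik3 guides, was a log2 difference of 0.11 ± 0.25 (SD, n = 10), from -0.17 to 0.72. Sik3 guide 2 minus guide 1 was 0.05 ± 0.29, from -0.36 to 0.56. The interaction, which asks whether the Sik3 guide difference depends on the Sik1 guide, was 0.06 ± 0.65, from -0.90 to 1.24. These ranges do not show that the pairs act alike, since a difference inside them would be missed.

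In KTL_Cas9 mice the sizes spread more. Pair 2/1 exceeded pair 1/2 by a log2 difference of 0.83 ± 0.69 (SD, n = 7), in 6 of 7 mice, and exceeded pair 1/1 by 0.85 ± 0.95, also in 6 of 7. The interaction was -1.68 ± 2.37, below 0 in 6 of 7 mice, and pair 2/2 was lower than pair 2/1 by -1.66 ± 2.20, in 5 of 7. None of the 9 contrasts passed by exact sign-flip permutation (0 of 9, 1 unadjusted; lowest adjusted p = 0.2109). In KT mice 0 of 9 passed (0 unadjusted), and 4 mice cannot give a p below 0.125.

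Whether a guide difference in size depends on the genotype was tested directly. From KT_Cas9 to KTL_Cas9 mice the Sik3 guide effect differed by -0.86 ± 0.48 SE and the interaction by -1.74 ± 0.92 SE (n = 7 and 10; exact permutation, p = 0.0465 and 0.0197, adjusted p = 0.0698 and 0.0591 over 3), and the Sik1 guide effect by -0.10 ± 0.49 SE. None of the 3 passed. Without KTL_Cas9 replicate 2 or 5, 1 of 3 passed, and without KTL_Cas9 replicate 6, 2 of 3. Against KT mice, 0 of 3 passed for either Cas9 genotype (0 unadjusted).

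In number, the guide pairs differed, and by like amounts with and without Cas9. Pair 2/2 gave 0.163 ± 0.008 tumours per inert tumour in KT (SD, n = 4), 0.185 ± 0.045 in KT_Cas9 (SD, n = 10) and 0.180 ± 0.067 in KTL_Cas9 mice (SD, n = 7). Pair 1/2 gave 0.580 ± 0.021, 0.662 ± 0.120 and 0.599 ± 0.107, and pair 2/1 gave 0.686 ± 0.020, 0.803 ± 0.115 and 0.681 ± 0.159. The order was thus pair 1/1, pair 2/1, pair 1/2 and, far below, pair 2/2 in each genotype.

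In KT_Cas9 mice 9 of 9 contrasts of number passed, and in KTL_Cas9 mice 8 of 9, the exception being pair 2/1 against pair 1/2. Pair 2/2 fell below pair 1/1 by a log2 difference of -2.23 ± 0.22 in KT_Cas9 mice (SD, n = 10; exact sign-flip permutation, adjusted p = 0.0022) and -2.20 ± 0.67 in KTL_Cas9 mice (SD, n = 7; adjusted p = 0.0176). In KT mice, where guides cannot cut, the same difference was -2.20 ± 0.09 (SD, n = 4), below 0 in 4 of 4 mice. The Sik1 guide effect, the Sik3 guide effect and the interaction in number were -0.98, -1.22 and -1.71 in KT, -0.97, -1.26 and -1.76 in KT_Cas9 and -1.01, -1.19 and -1.56 in KTL_Cas9 mice. Their differences between KT_Cas9 and KT mice were 0.01 ± 0.04, -0.04 ± 0.05 and -0.05 ± 0.11 SE.

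In summed cells, which combine number and size, 6 of 9 contrasts passed in KT_Cas9 and 6 of 9 in KTL_Cas9 mice. Pair 2/2 fell below pair 1/1 by -2.35 ± 1.26 in KT_Cas9 (SD, n = 10; exact sign-flip permutation, adjusted p = 0.0059) and -2.79 ± 1.73 in KTL_Cas9 mice (SD, n = 7; adjusted p = 0.0281), and by -2.33 ± 0.40 in KT mice (SD, n = 4). In KTL_Cas9 mice pair 2/1 also held more cells than pair 1/2, by 0.85 ± 0.51 in 7 of 7 mice (SD; exact sign-flip permutation, adjusted p = 0.0281). That difference was 0.50 ± 0.88 in KT_Cas9 mice and did not pass there (adjusted p = 0.1331). Leaving out any KTL_Cas9 mouse but replicate 6 took the 6 calls in KTL_Cas9 mice to 0, where fewer mice also allow fewer sign patterns, and without replicate 6 there were 7.

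The vectors most like the dual ones carry 1 of the same guides with NT, or guides against Sik1, Sik2 and Sik3. The single-gene vectors hold their guide behind mU6, so their Sik3 guide has another promoter than in the dual vectors. Contrasts with a Sik3 single-gene vector therefore also differ in that promoter. In KT_Cas9 mice each dual vector gave larger tumours than each of its single-gene vectors. Log2 sizes relative to inert tumours were 0.20 ± 0.17 for Sik1 guide 1, 0.26 ± 0.24 for Sik1 guide 2, 0.16 ± 0.21 for Sik3 guide 1 and 0.14 ± 0.19 for Sik3 guide 2 (SD, n = 10), against 0.88 ± 0.38, 0.90 ± 0.49, 0.96 ± 0.46 and 1.04 ± 0.71 for the dual vectors.

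Within mice, dual minus single-gene vector was a log2 difference of 0.68 to 0.90 in all 8 pairings, above 0 in 8 to 10 of 10 mice (exact sign-flip permutation, adjusted p from 0.0078 to 0.0156 over 16 contrasts). The dual vectors also exceeded the sum of the log2 sizes of their 2 single-gene vectors, by 0.52 ± 0.50, 0.56 ± 0.50, 0.54 ± 0.55 and 0.64 ± 0.63 (SD, n = 10). These excesses were above 0 in 9, 9, 9 and 8 of 10 mice and passed (exact sign-flip permutation, adjusted p = 0.0156, 0.0156, 0.0256 and 0.0260). In KT mice the same excesses were -0.12, 0.05, -0.03 and -0.20, with 0 of 16 contrasts called (0 unadjusted). In these sums too the Sik3 guide stands behind another promoter than in the dual vectors, and what this adds was not tested.

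Against Sik1/Sik2/Sik3, with a log2 size of 0.99 ± 0.45 in KT_Cas9 mice (SD, n = 10), the dual vectors differed by -0.10 ± 0.28, -0.09 ± 0.33, -0.03 ± 0.35 and 0.05 ± 0.56 (SD), and 0 of 4 passed. Single mice ran from -0.84 to 0.73 across these contrasts, so a difference from Sik1/Sik2/Sik3 inside that range would be missed. That vector holds Sik1 guide 1 behind bU6, a Sik2 guide behind mU6 and Sik3 guide 1 behind hU6. All 4 pairs thus also differ from it in the promoter of the Sik1 guide, and pairs 1/2, 2/1 and 2/2 in guides. These contrasts do not isolate the Sik2 guide. In all, 12 of 16 contrasts with other Sik vectors passed in KT_Cas9 mice.

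In KTL_Cas9 mice the contrasts with single-gene vectors spread more. Pair 2/1 exceeded Sik3 guide 1 by 2.07 ± 0.92 in 7 of 7 mice and Sik1 guide 2 by 1.89 ± 1.49 in 6 of 7 (SD). Its excess over their sum was 1.49 ± 1.62 in 5 of 7 mice. Pair 1/1 exceeded Sik1 guide 1 by 1.43 ± 1.14 and Sik3 guide 1 by 1.22 ± 0.97, each in 7 of 7 mice, and pair 1/2 exceeded Sik1 guide 1 by 1.45 ± 1.16 in 7 of 7. Of the 16 contrasts, 0 passed by exact sign-flip permutation (7 unadjusted; lowest adjusted p = 0.0625), and the smallest p that 7 mice allow is 0.0156. Pair 2/2 differed from its single-gene vectors by 0.23 ± 2.55 and 0.23 ± 2.38.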

How the data were processed

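Tumour barcode sequencing of genomic DNA from tumour-bearing mouse lungs gave 1 deposited table. Per the file headers it lists read counts by mouse, vector identifier and barcode, with cells estimated from them. The deposited counts are whole numbers of 2 or more and are not normalized. A deposited ratio, 500000 over a reads value of the mouse, converts reads to cells, and the deposited cell estimate (a signal) is the product of both. The sources used here do not give the read processing, the origin of the ratio or a genome build. The 105870 repeated lines were dropped, leaving 913708, and 48400 lines without a vector name were left out. KT replicate 4 had no lines and KTL_Cas9 replicate 1 had 0 inert tumours.

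The mouse was the replicate. Size and percentiles were taken from 5 tumours of a vector upwards, in mice with at least 20 inert tumours, and tested from 4 mice upwards (3 on leaving one out). Genotypes were compared by exact two-sided permutation of mice on log2 ratios to inert tumours (1001, 330 and 19448 splits), with Benjamini-Hochberg adjustment over 24 targeting vectors. Contrasts within a genotype used exact sign-flip permutation, adjusted over 9 or 16. Permutation takes the spread of both groups as equal, which it was not, since for every dual vector's size KT mice spread least and KTL_Cas9 mice most. Alternatives varied the size floor (150, 1500 or 5000 cells), reads (10), tumours per vector (20), shared barcodes, largest tumours, inert vectors, mean and mice, and used edgeR 4.0.16 and DESeq2 1.42.0 on summed reads and limma 3.58.1 on log2 ratios (R 4.3.3, Python 3.11.15, scipy 1.17.1). The tests were tested on simulated data.

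By the rule fixed for naming, all 4 dual vectors are named, of the others only the single-gene Sik1 and Sik3 vectors, Sik1/Sik2/Sik3 and the inert ones. The members and lists were chosen with earlier results of these data known. No guide sequence is printed, because guide sequences were not analysed here. One allele that all mice share is not reported here.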

Additional observations from a re-analysis of the deposited data

Results flagged for a closer look

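In 45 sets of mice checked for a mouse far from the rest of its genotype, 4 were found, and chance alone gives about 1 in 20. The log2 size of pair 2/1 was 0.014 in KT replicate 3, below 0.090 in the nearest other KT mouse. The Sik1 guide effect on size was 0.72 in KT_Cas9 replicate 2, next to 0.21. The log2 size of pair 1/1 was 3.76 in KTL_Cas9 replicate 5, next to 1.74. The log2 number of pair 2/2 was -1.72 in KT_Cas9 replicate 2, next to -2.36.

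With the floor at 500 cells the excess over inert tumours differed between KTL_Cas9 and KT_Cas9 mice by exact permutation for 11 values. For pair 2/1 the log2 difference was 1.504 in size and 1.13, 1.39, 1.49 and 0.87 at the 50th, 70th, 80th and 90th percentiles. For pair 1/1 it was 0.68, 0.82 and 0.94 at the 50th, 70th and 80th percentiles and -1.91 at the 99th. For pair 1/2 it was 0.72 and 0.84 at the 70th and 80th. Of the 24 targeting vectors 20.8% were called higher at the 50th percentile and 41.7% lower at the 99th. The share called higher was 4.17% in size and at the 90th, and 12.5% at the 70th and 80th. The call at the 99th is not read as particular to the dual vectors. With the floor at 5000 cells every positive value here turned negative. Those in size and at the 80th and 90th were called lower, as were 13, 13 and 15 of the 24 vectors. Those at the 50th and 70th were not called.

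KTL_Cas9 replicate 1, left out of all comparisons, had 55852 reads of named vectors and 17 tumours. Dual vectors held 72.7% of its tumour cells, in 9 tumours of which 8 had barcodes also found in other mice.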

How the results depend on the processing

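Counts here are of the 4 dual vectors called, by comparison, unless said otherwise. They are of calls in either direction where none is named, so like counts can hold opposite directions. For some of them the share over all targeting vectors is given above. The others have no share here and are not read as particular to the dual vectors. Replicate numbers are not in the labels. No paired analysis was possible because mice of different genotypes share no number or other link in the labels. Of the settings other than leaving out a mouse, 1625 values kept their direction and side of the threshold. With the same direction, 110 newly passed and 71 no longer passed. Another 106 changed direction and were called neither in the main setting nor in the other. A further 20 changed direction with a call in the main setting, the other or both. Where a count or direction changed, the cause was not tested. Low reads at the floor limit the median, and the few tumours of KTL_Cas9 mice limit the 99th percentile.

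With the floor at 150 cells the KTL_Cas9 against KT_Cas9 counts were 3 higher in size and 1 lower in number. By percentile they were 1 higher at the 50th, 3 higher at the 90th and 2 higher at the 95th (pair 1/1 1.06 there). The KT_Cas9 against KT counts were 0 at the 90th and 95th percentiles, KTL_Cas9 against KT was 0 at the 95th, and guide contrasts between genotypes called were 1 and 2 for KTL_Cas9 against KT and KT_Cas9. At 1500 cells KTL_Cas9 against KT_Cas9 gave 0 in size and 2 lower in cells. By percentile it gave 1 higher at the 50th, 0 at the 70th, 80th and 90th, 2 lower at the 95th and 2 lower at the 99th. Pairs 1/1 and 1/2 were at -0.60 and -0.75 at the 80th and pair 2/1 at -0.66 at the 90th. KT_Cas9 against KT gave 1, 2, 4 and 4 at the 50th to 90th, and KTL_Cas9 against KT 2 in size and 0 at the 95th.

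At 5000 cells KTL_Cas9 against KT_Cas9 gave 3 in size, 4 in number and 4 in cells, all of them lower. By percentile it gave 0 at the 50th and 70th, 4 lower at the 90th and 95th and 2 lower at the 99th. The values of pairs 1/1, 1/2 and 2/1 were -1.41, -1.32 and -1.01 in size, -1.24, -1.07 and -0.66 at the 70th, -1.64, -1.39 and -1.29 at the 80th and -1.89, -1.84 and -1.97 at the 90th. Pairs 1/1 and 2/1 were at -0.47 and -0.042 at the 50th, and pair 2/1 at -2.06 at the 95th. KT_Cas9 against KT gave 3 at the 50th, 4 at the 70th to 90th and 0 at the 99th, KTL_Cas9 against KT 2 in size and 0 at the 95th, and guide contrasts of cells in KT_Cas9 mice 0.

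With 10 reads or more, KTL_Cas9 against KT gave 2 in size, and the 90th percentile 4 for KT_Cas9 against KT and 0 for KTL_Cas9 against KT_Cas9. Without shared barcodes KTL_Cas9 against KT gave 2 in size, 2 in cells and 0 at the 95th, KTL_Cas9 against KT_Cas9 2 in size, 1 in cells and 4 at the 99th, KT_Cas9 against KT 1 at the 90th, and guide contrasts between the Cas9 genotypes 2. With 20 tumours or more those contrasts were 1. Without each vector's largest tumour they were 2, KTL_Cas9 against KT_Cas9 gave 1 in cells, 0 at the 90th and 2 at the 99th, and KTL_Cas9 against KT 0 at the 95th. Without the inert vector Neo1/NT, KT_Cas9 against KT gave 0 in cells and at the 99th, KTL_Cas9 against KT_Cas9 1 at the 70th and 80th and 0 at the 90th and 99th, and KTL_Cas9 against KT 0 at the 95th. Without Neo1/NT/Neo2, KTL_Cas9 against KT gave 2 in size and 0 at the 95th, and KTL_Cas9 against KT_Cas9 2 in size, 1 at the 50th and 2 at the 99th. With the arithmetic mean KTL_Cas9 against KT_Cas9 gave 0 in size, with pair 2/1 at -0.19. For KTL_Cas9 against KT, limma gave 3 in size, and DESeq2 and edgeR with either library size 3 in cells.

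Without single mice, KT_Cas9 against KT ran from 2 to 4 in size, 3 to 4 in cells, 0 to 2 at the 90th, 0 to 4 at the 95th and 1 to 4 at the 99th percentile. KTL_Cas9 against KT ran from 0 to 2 in cells and 0 to 3 at the 95th. KTL_Cas9 against KT_Cas9 ran from 1 to 3 in size, 0 to 1 in cells, 1 to 3 at the 50th, 0 to 1 at the 90th and 0 to 3 at the 99th, and stayed at 3 at the 70th and 80th. Guide contrasts of cells in KTL_Cas9 mice ran from 0 to 7, those between the Cas9 genotypes from 0 to 2, and contrasts with other Sik vectors in KT_Cas9 mice from 10 to 12. Guide contrasts of number stayed at 9 in KT_Cas9 and 8 in KTL_Cas9 mice, those of cells at 6 in KT_Cas9 mice, and the other counts at 0.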
